A study of Mus musculus with 12 samples.

Results

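The genes described here are 10 glucocorticoid-response genes, namely the glucocorticoid receptor gene Nr3c1 and 9 genes listed as its targets (Fkbp5, Klf9, Per1, Tsc22d3, Ddit4, Zbtb16, Sgk1, Dusp1 and Irf2bp2). They were picked by name among the 55367 genes of the count table. The rule holds no measured value, but the choice was made with earlier results of these data known. All 10 passed the filter on low counts that left 13384 genes for testing. RNA was sequenced from whole blood of CB17-SCID mice, an immunodeficient strain without normal T and B lymphocytes, that bore xenograft tumours grown from HT1376, an established line of human bladder carcinoma. All mice were dosed for 11 days, either with vehicle or with CPI0209 at 35 mg per kg by mouth once a day, and CPI0209 (tulmimetostat) is an inhibitor of the histone methyltransferases EZH2 and EZH1. Blood of treated mice was drawn 1, 6 or 24 h after the last dose, and each of the 4 groups has 3 libraries. The labels give neither the draw time of the vehicle group nor the hour of the day, so time since the last dose and hour of day cannot be told apart. They also do not say whether the 3 libraries of a group came from separate mice, and the p-values measure only the spread between these libraries.

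Glucocorticoids (corticosterone in mice) cross the cell membrane and bind the glucocorticoid receptor, which waits in the cytoplasm in a complex with HSP90 and co-chaperones. The bound receptor moves to the nucleus, where it binds palindromic DNA elements as a dimer, induces genes such as Fkbp5, Per1, Tsc22d3 and Dusp1, and dampens inflammatory genes. In blood the hormone also follows a daily rhythm, responds to handling and stress, and changes how many leukocytes of each kind circulate.

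To set the counts beside the DNA that the receptor could read, the 250 bases before RefSeq transcription starts were searched for 5 motifs on both strands (RefSeq windows on GRCm38.p6). Windows were found for 8 of the 10 genes, so Zbtb16 and Nr3c1 were not searched. The windows of Fkbp5, Klf9 and Irf2bp2 are shown because these genes were higher 1 h after the dose, that of Per1 because it holds part of a cAMP response element, and that of Sgk1 because it holds the full receptor palindrome while its counts were not higher at 1 h. The Fkbp5 window is chr17:28486150-28486399 (minus strand), Klf9 is chr19:23140976-23141225 (plus), Irf2bp2 is chr8:126593987-126594236 (minus), the Per1 window is chr11:69099902-69100151 (plus) and the Sgk1 window, 1 of 6 for that gene, is chr10:21993640-21993889 (plus). None of the 5 overlaps an annotated exon of its own gene, and those of Fkbp5, Per1 and Sgk1 lie within the span of longer transcripts. Capitals mark motif matches.
Fkbp5: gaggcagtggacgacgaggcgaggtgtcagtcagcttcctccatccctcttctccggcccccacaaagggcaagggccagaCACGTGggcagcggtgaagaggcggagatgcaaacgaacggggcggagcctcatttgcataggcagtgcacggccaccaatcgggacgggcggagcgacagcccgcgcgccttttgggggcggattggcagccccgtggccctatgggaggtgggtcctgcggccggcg
Klf9: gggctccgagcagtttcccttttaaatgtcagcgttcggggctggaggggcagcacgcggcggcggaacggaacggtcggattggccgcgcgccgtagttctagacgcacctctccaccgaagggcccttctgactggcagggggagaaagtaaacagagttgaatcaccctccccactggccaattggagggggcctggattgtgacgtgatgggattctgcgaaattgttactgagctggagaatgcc
Irf2bp2: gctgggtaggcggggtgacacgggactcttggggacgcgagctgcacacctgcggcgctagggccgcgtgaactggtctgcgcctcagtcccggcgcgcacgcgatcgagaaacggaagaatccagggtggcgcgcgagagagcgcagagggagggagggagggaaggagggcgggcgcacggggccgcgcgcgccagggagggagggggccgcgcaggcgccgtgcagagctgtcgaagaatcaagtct
Per1: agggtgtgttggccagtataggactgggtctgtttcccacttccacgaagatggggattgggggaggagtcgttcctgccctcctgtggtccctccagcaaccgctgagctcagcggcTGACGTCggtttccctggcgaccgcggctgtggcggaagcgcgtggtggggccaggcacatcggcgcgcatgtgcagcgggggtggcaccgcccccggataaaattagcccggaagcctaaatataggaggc
Sgk1: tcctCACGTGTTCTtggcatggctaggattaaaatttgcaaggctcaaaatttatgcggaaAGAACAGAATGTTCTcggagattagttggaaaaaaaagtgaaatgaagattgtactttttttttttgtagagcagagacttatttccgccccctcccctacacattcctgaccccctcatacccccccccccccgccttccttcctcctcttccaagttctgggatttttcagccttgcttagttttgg

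The receptor's palindromic element, searched as AGAACA, any 3 bases and TGTTC, was in 10 of 32851 windows (0.0304%). Among the 8 genes with windows it was only in the Sgk1 window shown. There it reads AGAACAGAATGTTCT at chr10:21993701-21993715, and it contains matches of the hexamer AGAACA alone, which 16.1% of windows hold. In the same window another hexamer overlaps an E-box. The hexamer was also in other windows of Sgk1 and in 1 of Tsc22d3. The E-box CACGTG, bound by CLOCK and BMAL1, was in 6.02% of windows, among them those of Fkbp5, Sgk1, Dusp1 and the other Per1 start. The cAMP element core TGACGTC was in 2.78% of windows, among them those of Per1 and Dusp1, and the full TGACGTCA, in 1.55%, was in that of Dusp1. The Dusp1 window is not shown, and neither Per1 nor Dusp1 passed at 1 h against vehicle. The windows of Klf9, Ddit4 and Irf2bp2 held none of these letters, which says nothing about elements elsewhere.

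Library totals ran from 6496573 to 9978215 counts, and levels are given as CPM, counts scaled to the library size that edgeR's TMM method gives, as mean ± SD with n = 3. The libraries differed in reticulocyte RNA: the summed CPM of 25 reticulocyte markers was 58448 to 67771 in vehicle, 66533 to 77400 at 1 h, 106194 to 124366 at 6 h and 34612 to 95157 at 24 h. The third 24 h library stood apart from the other two in that sum and is left out in turn below. Markers of T cells (12 genes, 35.9 to 71.0 CPM in sum across libraries) and B cells (10 genes, 33.6 to 62.1 CPM) were low, with the B cell marker Ms4a1 at 0 in all libraries. In bulk blood, fewer cells of a type and less RNA per cell cannot be told apart.

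**Figure D1:**
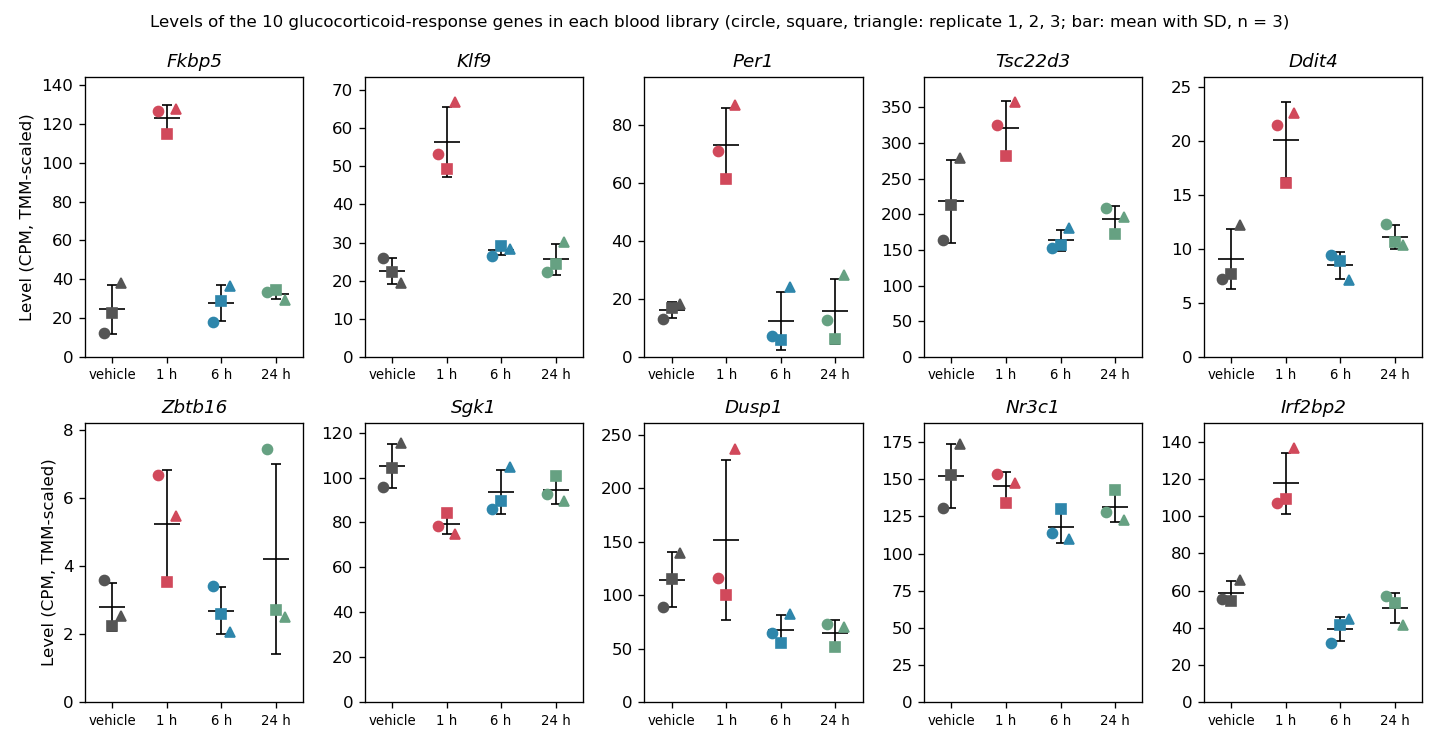
Level of each of the 10 genes in CPM (vertical axis) in the 12 blood libraries, by group (vehicle and 1, 6 or 24 h after the last CPI0209 dose), with the group mean and SD. The 3 libraries at 1 h stand above all others for Fkbp5, Klf9, Per1, Ddit4, Tsc22d3 and Irf2bp2, and below all others for Sgk1.

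Per kilobase of merged exon, which allows levels to be compared between genes, Tsc22d3 was the most abundant in vehicle blood at 50.3 ± 13.4 CPM per kb, followed by Dusp1 at 34.6 ± 7.68. Sgk1 (21.4 ± 1.99) and Nr3c1 (19.8 ± 2.80) came next and lay within their spread of each other, as did Ddit4 (5.14 ± 1.58) and Klf9 (4.69 ± 0.696) below Irf2bp2 (11.5 ± 1.25). Per1 (2.85 ± 0.478) and Fkbp5 (2.58 ± 1.35) did not differ beyond their spread, and Zbtb16 was lowest at 0.530 ± 0.134. At 1 h the order per kb had altered. Irf2bp2 (23.1 ± 3.22) then came after Tsc22d3 and Dusp1, and Fkbp5 (12.99 ± 0.756), Per1 (12.98 ± 2.27), Klf9 (11.7 ± 1.91) and Ddit4 (11.4 ± 1.99) lay within their spread of each other.

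One hour after the last dose, 3 of the 10 genes rose against vehicle and none fell: Fkbp5, Klf9 and Irf2bp2. For background, 0.179% of tested genes were called higher (24 genes) and 0.0149% lower (2 genes). The libraries of 6 of the 10 genes lay wholly above vehicle, against 8.92% of all genes, and those of 1 gene wholly below, against 8.44%. The median log2 difference was 0.95 over the 10 genes and -0.02 over all tested genes.

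The receptor gene did not pass at 1 h. Nr3c1 (GRCm38 chr18:39410545-39519421) had 131, 153 and 174 CPM in vehicle and 154, 134 and 148 CPM at 1 h. The groups overlapped, with a log2 difference of -0.07 and a 95% interval of -0.42 to 0.28 (adjusted p = 0.97).

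Fkbp5, which encodes the HSP90 co-chaperone FKBP51 that lowers the receptor's affinity for hormone, had the largest difference of the 10 (chr17:28399094-28517527, minus strand). Vehicle libraries had 12.4, 22.8 and 37.9 CPM, and the 1 h libraries had 127, 115 and 128 CPM. Every 1 h library was above every vehicle library, and the vehicle libraries themselves spread widely. The mean went from 24.4 ± 12.8 to 123 ± 7.16 CPM, a log2 difference of 2.34 (SE 0.32, adjusted p = 0.0065).

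Among the transcription regulators, Klf9, a Krüppel-like zinc finger factor, also rose (chr19:23141226-23168134). It had 26.0, 22.4 and 19.3 CPM in vehicle and 53.2, 49.4 and 66.9 CPM at 1 h, with no overlap and a log2 difference of 1.32 (SE 0.18, adjusted p = 0.0066). Irf2bp2, a corepressor that binds IRF2, had 55.4, 54.5 and 65.9 CPM in vehicle and 107, 109 and 136 CPM at 1 h (chr8:126588296-126593986). Its groups were also apart, at 1.00 (SE 0.18, adjusted p = 0.039).

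Per1, a period gene of the circadian clock and a direct receptor target, had the second largest difference of the 10 but did not pass (chr11:69095217-69109960). Vehicle libraries had 13.02, 16.9 and 18.2 CPM and the 1 h libraries had 70.9, 61.5 and 86.8 CPM. The groups were far apart, and the log2 difference of 2.19 had the largest SE of the 10 genes (0.51, adjusted p = 0.12). That SE is from a fit over all groups. The SD of Per1 was 16.8% of the mean in vehicle and 17.5% at 1 h, but 82.0% at 6 h and 72.6% at 24 h. Per1 passed in 4 of 7 other settings, among them the DESeq2 test and a fit of only the 2 groups. Zbtb16, the zinc finger factor PLZF (chr9:48654297-48836222), was low everywhere, with 3.60, 2.26 and 2.54 CPM in vehicle and 6.67, 3.54 and 5.49 CPM at 1 h. Its groups overlapped (0.90, SE 0.44, adjusted p = 0.74).

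Of the anti-inflammatory targets, Tsc22d3, which encodes the leucine zipper protein GILZ (chrX:140539528-140600659), had 164, 212 and 280 CPM in vehicle and 326, 281 and 358 CPM at 1 h. The groups only just did not overlap, and the log2 difference of 0.56 (SE 0.19) did not pass (adjusted p = 0.43). Dusp1, the phosphatase MKP-1 that switches off MAP kinases (chr17:26505590-26562128), had 88.9, 116 and 140 CPM in vehicle and 116, 100 and 237 CPM at 1 h. Only the third 1 h library was above the vehicle range. The log2 difference was 0.40 (SE 0.29, adjusted p = 0.88) and -0.07 without that library.

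Of the metabolic and kinase targets, Ddit4 (REDD1), an inhibitor of the mTORC1 kinase complex (chr10:59949669-59951834), had 7.21, 7.63 and 12.2 CPM in vehicle and 21.5, 16.1 and 22.6 CPM at 1 h. The groups did not overlap, at a log2 difference of 1.16 (SE 0.25) that did not pass (adjusted p = 0.086). Sgk1, the serum and glucocorticoid regulated kinase (chr10:21882184-21999903), had 95.9, 104 and 115 CPM in vehicle and 78.6, 84.1 and 75.1 CPM at 1 h. All 1 h libraries were below all vehicle libraries, with a log2 difference of -0.41 (SE 0.14, 95% interval -0.74 to -0.08, adjusted p = 0.45).

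The number of genes that passed at 1 h rested on single libraries. Without vehicle replicate 2 none passed (adjusted p = 0.071 for Fkbp5 and 0.067 for Klf9), and without 24 h replicate 3, which belongs to neither group, 5 passed, with Per1 (adjusted p = 0.017) and Ddit4 (0.034) added. Irf2bp2 passed in 3 of the 12 fits that left out 1 library, those without 6 h replicate 1, 24 h replicate 1 or 24 h replicate 3. Of 25 reticulocyte markers none passed at 1 h and 14 lay wholly above vehicle, against 8.92% of all genes. At an unadjusted p under 0.05 in edgeR, 11 stood out, all higher. Fewer than 1140 of the 13384 tested genes reached that level. With library totals alone 7 were called higher, beside 65 of all genes. The neutrophil sum was 6567 to 13093 CPM in vehicle and 7106 to 8242 CPM at 1 h. Of the 17 neutrophil markers 1 was higher and 4 lower at that unadjusted level, with a median log2 difference of -0.395. All 1 h libraries were above vehicle for 1 of them and below for 3, against 8.44% of all genes below. The monocyte sum was 2201 to 3689 and 2116 to 3166 CPM. The part of these cell types in the 1 h differences was not tested.

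**Figure D2:**
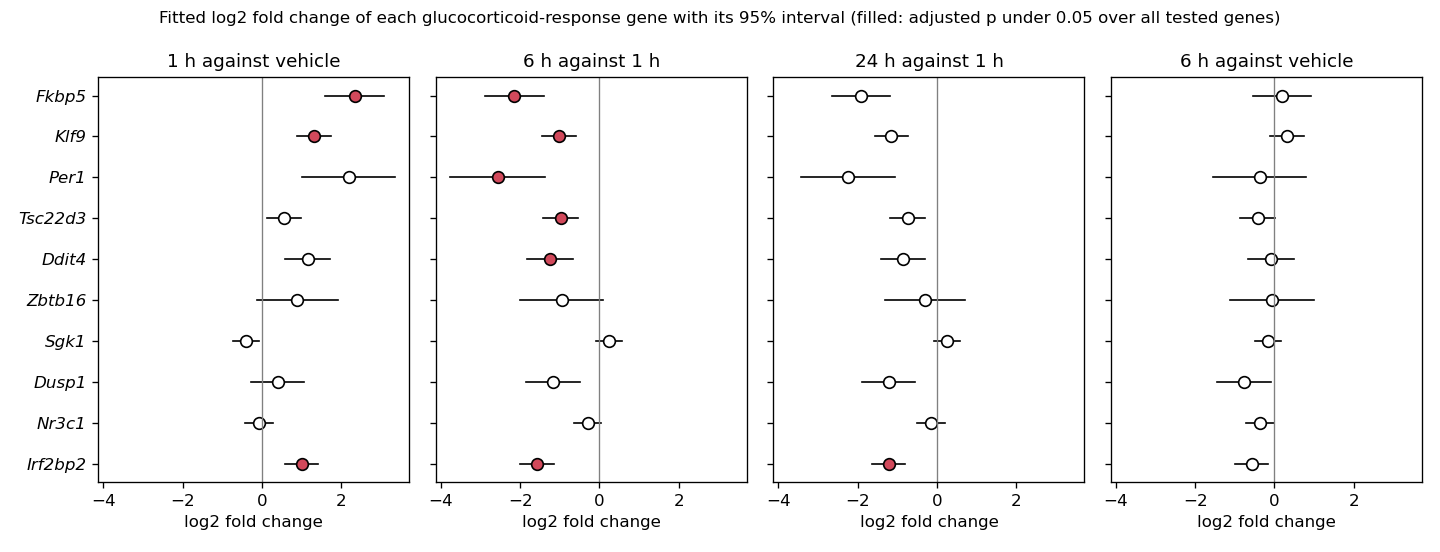
Log2 difference of each of the 10 genes in 4 comparisons between groups, with 95% intervals from the edgeR fit; filled points passed the adjusted threshold of 0.05. Fkbp5, Klf9 and Irf2bp2 are filled at 1 h against vehicle, and 6 genes are filled and below 0 at 6 h against 1 h.

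Between 1 and 6 h after the dose, 6 of the 10 fell and none rose: Fkbp5, Klf9, Per1, Tsc22d3, Ddit4 and Irf2bp2. Over all tested genes 0.359% were called lower (48 genes) and 0.134% higher (18 genes). All 6 h libraries were below all 1 h libraries for 9 of the 10 genes, against 13.8% of all genes, and above for Sgk1 alone, against 18.1%. The median log2 difference was -1.09, against 0.00 over all tested genes. By library totals alone, 8 of the 10 fell, and 17 genes were called higher and 657 lower over the table. With that scaling the median of all genes moved by -0.43 and that of the 10 genes stayed 1.10 below it. This comparison shares the 1 h libraries with the one before it.

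Irf2bp2 had the smallest p of all 13384 genes in this comparison. It had 32.1, 41.3 and 44.5 CPM at 6 h, all of them below its vehicle libraries as well, and fell by 1.58 on the log2 scale (SE 0.18, adjusted p = 0.0032). Fkbp5 had 18.1, 28.7 and 36.4 CPM at 6 h, within its vehicle range, and fell by 2.15 (SE 0.32, adjusted p = 0.021). Klf9, at 26.6, 29.0 and 28.3 CPM, fell by 1.02 (SE 0.18, adjusted p = 0.034) to levels just above its vehicle libraries.

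Per1 fell furthest, by 2.57 (SE 0.52), but its adjusted p of 0.0498 lay at the threshold. It had 7.17, 5.82 and 23.9 CPM at 6 h, with the third library well above the other two and still below every 1 h library. Tsc22d3, at 153, 156 and 180 CPM, fell by 0.98 (SE 0.19, adjusted p = 0.048). Ddit4, at 9.41, 8.91 and 7.07 CPM, fell by 1.25 (SE 0.25, adjusted p = 0.049).

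The 4 other genes did not pass between 1 and 6 h. Dusp1 had 64.4, 55.6 and 82.4 CPM at 6 h, below all 1 h libraries, at -1.17 (SE 0.29, adjusted p = 0.081). Zbtb16 had 3.43, 2.60 and 2.06 CPM (-0.95, SE 0.45, adjusted p = 0.25). Nr3c1 had 114, 130 and 110 CPM (-0.30, SE 0.15, adjusted p = 0.28), and Sgk1 had 86.2, 89.6 and 105 CPM. Sgk1 alone had a positive value (0.24, SE 0.14, adjusted p = 0.36), which was -0.19 when scaled by library totals alone.

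Irf2bp2 passed in all 12 fits that left out 1 library, Fkbp5 in 8, Klf9 in 6, Per1 and Tsc22d3 in 4 each and Ddit4 in 3. The number that fell was 1 without 1 h replicate 1, 1 h replicate 3, 6 h replicate 1 or 6 h replicate 2, 2 without 1 h replicate 2, 3 without vehicle replicate 2 or 6 h replicate 3, and 7 without 24 h replicate 1 or 24 h replicate 3. Reticulocyte markers moved with this comparison: for 23 of 25 all 6 h libraries were above all 1 h libraries, against 18.1% of all genes. Their median log2 difference was 0.85, with 0 called by edgeR and 16 at an unadjusted p under 0.05. Fewer than 2820 of the 13384 tested genes reached that level. The neutrophil sum at 6 h was 8952 to 15163 CPM, the monocyte sum 1740 to 2219 CPM and the platelet sum 3884 to 5553 CPM. The part of these cell types in the falls was not tested.

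Against vehicle, none of the 10 genes passed at 6 h, where 4.06% of tested genes were called higher and 0.785% lower. At an unadjusted p under 0.05, edgeR had 4 of the 10 lower, a looser level than that of the shares just given. Tsc22d3 had the largest p of the 4 (0.045) and ranked only 2509 by p among the 13384 tested genes, so such values were common here. DESeq2 called 1 and limma-voom 0. Irf2bp2 (-0.57, SE 0.18, adjusted p = 0.087), Dusp1 (-0.77, SE 0.29, adjusted p = 0.16) and Nr3c1 (-0.37, SE 0.15, adjusted p = 0.18) had all 6 h libraries below vehicle, against 13.5% of all genes. Klf9 had them all above (0.31, SE 0.18, adjusted p = 0.39), against 15.8%. Fkbp5 was at 0.19 (SE 0.32, 95% interval -0.54 to 0.92). Scaled by library totals alone, Klf9 was at -0.16 and Fkbp5 at -0.24. The 6 h group depends on scaling: by library totals alone the median of all genes moved by -0.50 on the log2 scale, 344 genes were called higher and 1488 lower (543 and 105 with TMM), and Dusp1, Irf2bp2, Nr3c1, Sgk1 and Tsc22d3 were among those lower. In the same comparison 14 of 25 reticulocyte markers were called higher and 23 lay wholly above vehicle (median log2 difference 1.38). Their part in the values of the 10 genes was not tested.

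At 24 h none of the 10 genes passed against vehicle, where 0.105% of tested genes were called higher and none lower. At an unadjusted p under 0.05, edgeR had 1 of the 10, Dusp1, and both DESeq2 and limma-voom called 0. By that unadjusted p (0.014) Dusp1 ranked 386 among the 13384 tested genes. Fkbp5 had 33.3, 34.7 and 29.4 CPM, inside the vehicle range (0.42, SE 0.32, 95% interval -0.31 to 1.14, adjusted p = 0.78). Dusp1 had 73.0, 51.4 and 70.5 CPM, all below vehicle (-0.82, SE 0.29, adjusted p = 0.47), as 5.61% of all genes were, and none of the 10 lay wholly above vehicle, as 6.34% did. Per1 varied most, with 12.8, 5.96 and 28.1 CPM, the highest in the library that stood apart in reticulocyte RNA. Zbtb16 had 7.45, 2.71 and 2.50 CPM, with its highest value of the study in the first 24 h library.

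Against 1 h, Irf2bp2 alone fell by 24 h, from 117 ± 16.4 to 50.6 ± 8.19 CPM (57.2, 53.2 and 41.4 CPM), by 1.21 on the log2 scale (SE 0.18, adjusted p = 0.041). Only 0.0224% of tested genes were called lower (3 genes). For 7 of the 10 genes all 24 h libraries lay below all 1 h libraries, against 4.74% of all genes, and for Sgk1 they lay above, against 5.64%. Klf9 (22.2, 24.4 and 30.0 CPM, -1.15, SE 0.18) and Fkbp5 (-1.92, SE 0.32) missed at an adjusted p of 0.062 each. Without 24 h replicate 3, 4 genes fell: Irf2bp2 (adjusted p = 0.013), Klf9 (0.012), Per1 (0.013) and Fkbp5 (0.022). The count was 3 without vehicle replicate 1, 2 without vehicle replicate 3, and 0 without vehicle replicate 2, any 1 h library, 6 h replicate 2 or 3, or 24 h replicate 1 or 2. Between 6 and 24 h none of the 10 passed, also at an unadjusted p under 0.05 or with DESeq2 or limma-voom, with log2 differences from -0.13 to 0.66, where 0.508% of tested genes were called higher (68) and 1.25% lower (167). By library totals alone that split was 2692 higher and 259 lower, and 4 of the 10 passed.

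Of 4 genes annotated inside Fkbp5 introns, 3 had counts and were likewise highest at 1 h, and Gm49799 had 0 counts in all 12 libraries. Names are those of the count table, matched to positions by gene identifier, and GENCODE M21 names these genes differently. In particular it gives the name Gm22146 to the gene that the count table calls Gm49799. Gm49838, on the same strand in an intron (chr17:28424723-28426430), had 10, 25 and 20 counts in vehicle and 194, 227 and 349 at 1 h. It then had 21, 18 and 37 at 6 h and 31, 23 and 34 at 24 h. Only the 1 h libraries were high, at 3.80 against vehicle on the log2 scale (adjusted p = 0.00056), and it fell by 3.15 to 6 h (adjusted p = 0.0032).

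Gm22146, annotated on the opposite strand (chr17:28446500-28456457), had 9, 16 and 23 counts in vehicle, 81, 85 and 150 at 1 h. The later libraries had 13, 9 and 4 counts (6 h), then 9, 14 and 10 (24 h). It rose by 2.70 (adjusted p = 0.019) and fell by 3.38 (adjusted p = 0.015). Gm49839, on the same strand (chr17:28457484-28461095), went from 128 counts over the vehicle libraries to 704 at 1 h (2.45, adjusted p = 0.059) and 68 at 6 h, when it fell by 3.18 (adjusted p = 0.021). The sources used here do not say whether counting used strand. Reads of Gm49838 and Gm49839, on the Fkbp5 strand, cannot be told apart from unspliced Fkbp5 RNA with or without strand. For Gm22146, on the opposite strand, the same holds if counting ignored strand. None of these genes is therefore taken as independent of Fkbp5. Ergic1, which overlaps a Dusp1 exon on the opposite strand, did not pass (0.49 at 1 h, adjusted p = 0.64).

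**Figure D3:**
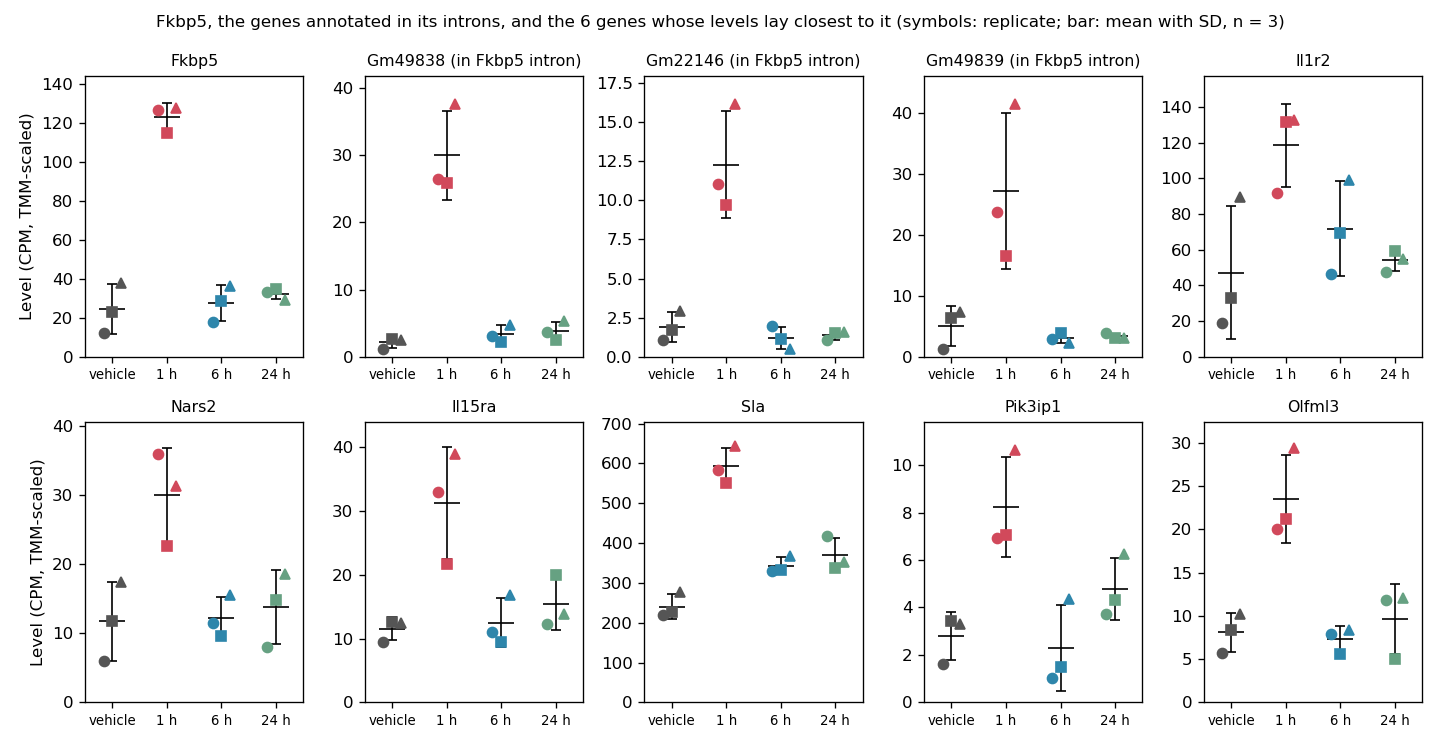
Levels in CPM of Fkbp5, of 3 genes annotated inside its introns and of the 6 genes most like it, in each of the 12 libraries by group. For Fkbp5, Gm49838, Gm22146 and Gm49839 the 3 libraries at 1 h lie above all libraries of the other groups.

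The genes whose course was most like that of Fkbp5 over the 12 libraries were Il1r2, Nars2, Il15ra, Sla, Pik3ip1 and Olfml3. Likeness was the root-mean-square difference of log2 CPM from the vehicle mean, and it was 0.56 for Il1r2 and 0.70 for Olfml3, among 9995 genes compared. Il1r2, the decoy receptor for interleukin 1, had 18.9, 33.1 and 89.3 CPM in vehicle and 91.8, 132 and 133 CPM at 1 h. It then had 46.3, 69.6 and 99.4 CPM at 6 h, and 47.5, 59.6 and 54.9 CPM at 24 h. As for Fkbp5, vehicle replicate 1 was its lowest library. Il1r2 is also among the 17 neutrophil markers, but its values lay at the ends of that list. At 1 h against vehicle its log2 difference of 1.34 was the list's highest, beside a median of -0.395. At 6 h against 1 h its -0.73 was the list's lowest, beside a median of 0.86. Of the 10 genes described, Ddit4 ranked 9 and Klf9 ranked 10, Per1 ranked 30, Irf2bp2 71, Zbtb16 191 and Tsc22d3 248, whereas Nr3c1, Dusp1 and Sgk1 ranked 4959 or beyond.

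In the wider pathway, none of 34 tested other glucocorticoid-induced genes (40 listed) passed at 1 h against vehicle, with a median log2 difference of 0.13. At 1 h an edgeR p of 0.063 (Zbtb16) ranked 1140 among the 13384 tested genes, so fewer had an unadjusted p under 0.05. At that level, 7 of the 34 were higher and 2 lower. The smallest p values belonged to Nfkbia, the inhibitor of NF-kappaB (0.94, SE 0.25, adjusted p = 0.21), Pik3ip1, an inhibitor of PI3 kinase (1.56, SE 0.46, adjusted p = 0.29), Il1r2 (1.34, SE 0.42, adjusted p = 0.35) and Bcl2l11, the death factor BIM (0.44, SE 0.17, adjusted p = 0.54). Between 1 and 6 h, Irs2, an adaptor of the insulin receptor, fell by 0.90 (adjusted p = 0.049), 1 of the 34, with a median of -0.27. Nfkbia (-1.21, adjusted p = 0.054) and Pik3ip1 (-1.82, adjusted p = 0.082) did not pass. Both were among 6 of the 34 called lower with library totals alone, beside 657 of the 13384 tested genes. At 6 h against vehicle Stom rose by 0.69 (adjusted p = 0.034) and Irs2 (-0.80, adjusted p = 0.022) and Zfp36l2 (-0.56, adjusted p = 0.049) fell, against 4.06% (higher) and 0.785% (lower) of all those tested. Scaling by library totals alone called 0 of the 34 higher, so that Stom was lost, and 9 lower. Over all 13384 tested genes that scaling called 344 higher and 1488 lower. With DESeq2 size factors Zfp36l2 was not called.

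Among 12 receptor chaperones none passed at 1 h (median -0.05, with 2 higher and 1 lower at an unadjusted p under 0.05). Fewer than 1140 of the 13384 tested genes reached that level at 1 h. Hsp90ab1, an HSP90 gene, was at 1.09 (SE 0.22, adjusted p = 0.069) and Bag1, an HSP70 co-chaperone, at -0.80 (SE 0.21, adjusted p = 0.21). At 6 h against vehicle Hsp90ab1 (0.84, adjusted p = 0.040) and its activator Ahsa1 (0.72, adjusted p = 0.030) rose, 2 of 12, beside 4.06% of all tested genes. With library totals alone neither was called and Hspa8, an HSP70 gene, was called lower, 1 of 1488 genes so called over the table. Of 14 receptor cofactor and hormone-handling genes none passed at 1 h (median 0.27, 4 at that unadjusted level). Of 12 tested inflammatory genes that glucocorticoids are known to repress (22 listed), none passed at 1 h (median 0.09, with 1 higher and 2 lower at that unadjusted level). Il1b was at -0.73 (SE 0.22, adjusted p = 0.29), Tnf at -0.85 (SE 0.35, adjusted p = 0.61) and Nos2, the inducible nitric oxide synthase, at 1.97 (SE 0.78, adjusted p = 0.59). At 6 h Nos2 was higher by 3.52 (adjusted p = 0.019), the only one called, from 1.26 ± 2.00 to 14.0 ± 5.87 CPM with wide spread in vehicle.

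Per1 and Dusp1 also belong to the clock genes and the immediate early genes. Of 14 tested core clock genes (18 listed) none passed at 1 h (median 0.39, 3 unadjusted), with Rora at 0.86 (SE 0.24, adjusted p = 0.25) and Nr1d2 at 0.65 (SE 0.25, adjusted p = 0.54), and Per1 alone fell between 1 and 6 h (list median -0.37). Nfil3 was at -0.91 between those times (SE 0.20, adjusted p = 0.065). It was called lower too with library totals alone, as were 657 genes over the table. Of 21 tested immediate early genes (23 listed) none passed at 1 h, with a median of -0.15 and 5 unadjusted, all lower. Fewer than 1140 of the 13384 tested genes had an unadjusted p under 0.05 in edgeR at 1 h. Atf3, a stress-induced transcription factor, was at -1.02 (SE 0.22, adjusted p = 0.089) at 1 h. At 6 h it fell against vehicle by 1.34 (adjusted p = 0.0036), the only one called there. With library totals alone 8 of the 21 were called lower at 6 h against vehicle, beside 1488 of the 13384 tested genes.

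**Figure D4:**
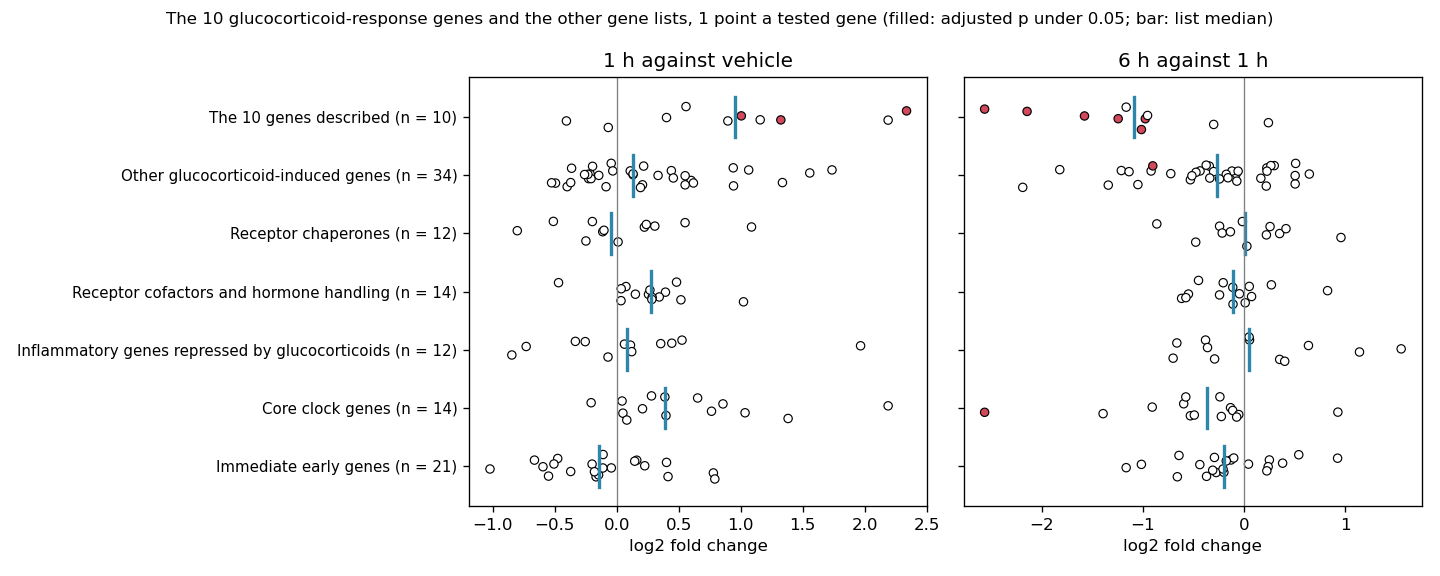
Log2 differences of the tested genes of each list (points) with the list median (bar) at 1 h against vehicle and at 6 h against 1 h. The 10 genes described have medians of 0.95 and -1.09, and the 34 other glucocorticoid-induced genes 0.13 and -0.27. All lists were written with earlier results of these data known.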

How the data were processed

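Whole blood RNA of 12 libraries (4 groups of 3) was sequenced after ribosomal RNA depletion, per the labels' protocols. The authors deposited counts per gene as whole numbers, not scaled, with RSEM and the human build hg38 named in the submitters' processing notes although the gene identifiers are mouse. RSEM counts may be rounded estimates. The sources used here do not give the aligner, annotation release or strand setting. Positions are from GENCODE M21 (GRCm38), which held 55111 of 55367 identifiers, and the files' own build is not certain from these sources. Upstream sequences are from RefSeq (GRCm38.p6).

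Counts were analysed in R 4.3.3 with edgeR 4.0.16: filterByExpr by group, TMM scaling, and quasi-likelihood F tests (glmQLFit, glmQLFTest) of 6 contrasts of group means fitted to all 12 libraries. Benjamini-Hochberg adjustment ran over the 13384 tested genes, a gene passed at 0.05, and each adjusted p is from this model unless another tool is named. "Passed", "rose" and "fell" mean an adjusted p below that threshold. The SE is the absolute log2 fold change divided by the square root of F, and 95% intervals are approximate, unadjusted and built from it. The script was tested on simulated data. With 3 libraries in each group, the smallest two-sided p of an exact permutation test is 0.1.

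Alternatives were DESeq2 size factors, library totals alone, no filter, the DESeq2 1.42.0 test, limma-voom (limma 3.58.1), a fit of only the 2 groups, a block for replicate number, and fits that each left out 1 library. All 10 genes are always given. From other lists, up to 4 tested genes with the smallest p in a comparison could be named, with genes overlapping a member and the 6 genes most like Fkbp5 (mean log2 CPM of at least 1, prior count 2, no predicted name). The 10 genes and the lists were chosen with earlier results of these data known. A few results within this rule are not reported here.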

Additional observations from a re-analysis of the deposited data

Results flagged for a closer look

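Levels in treated mice differed between collection times for 6 of the 10 genes, by the edgeR test of 6 h against 1 h. That contrast holds no vehicle group, and time since the last dose and hour of day cannot be told apart in it. The log2 differences of 6 h against 1 h were -2.15 for Fkbp5, -1.02 for Klf9, -2.57 for Per1, -0.98 for Tsc22d3, -1.25 for Ddit4 and -1.58 for Irf2bp2. Irf2bp2 differed also between 24 and 1 h, at -1.21. In all 7 of these, every later library lay below every 1 h library, but they were picked because they passed on these same libraries. Of all tested genes, 13.8% lay wholly below 1 h at 6 h and 4.74% at 24 h. Groups of 3 libraries were too small to check single libraries as extreme values.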

How the results depend on the processing

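The call count of the 10 genes moved with the fit. At 1 h against vehicle (3) it was 5 with the DESeq2 test, with no filter and with only the 2 groups compared, and 0 to 5 with 1 library left out. At 24 h against 1 h (1) it was 4 with DESeq2, 3 with limma-voom, 5 with no filter, 0 with library totals alone, and 0 to 4 with 1 library left out. At 6 h against 1 h (6) it stayed between 5 and 8 over the other settings and was 1 to 7 with 1 library left out. At 6 h against vehicle (0) it was 1 with DESeq2, 5 with library totals alone, 1 with no filter, 2 with only the 2 groups compared, and 0 to 1 with 1 library left out. At 24 h against 6 h (0) it was 4 with library totals alone, and at 24 h against vehicle (0) it was 1 with no filter. The causes were not tested.

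Over the whole table, calls ranged from 7 to 165 at 1 h against vehicle (26), from 4 to 1285 at 6 h against 1 h (66), from 239 to 1266 at 6 h against vehicle (648), from 3 to 112 at 24 h against vehicle (14), from 0 to 205 at 24 h against 1 h (3) and from 0 to 2243 at 24 h against 6 h (235) with 1 library left out. The largest counts among the other settings were 288, 1720, 1832, 237, 107 and 2951 in the same order, and the smallest were 17, 50, 624, 1, 1 and 0.

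Log2 differences changed sign with library totals alone for Fkbp5 (-0.24) and Klf9 (-0.16) at 6 h against vehicle and Sgk1 (-0.19) at 6 h against 1 h. With 1 library left out, the values spanned 0 for Fkbp5 (-0.15 to 0.64), Zbtb16 (-0.26 to 0.14) and Ddit4 (-0.25 to 0.17) at 6 h against vehicle, and for Nr3c1 (-0.154 to 0.058) and Dusp1 (-0.069 to 0.62) at 1 h against vehicle. At 24 h against 6 h, Klf9 and Dusp1 were below 0 with TMM and all 10 genes were above 0 with library totals alone. None of these had passed with TMM.

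The labels do not say that replicate numbers pair the libraries. Of 18 same-numbered pairs 2 had correlated deviations over 0.1 (-0.11 to 0.17), and a differently numbered pair reached 0.18. With so few libraries in a group, these correlations cannot decide whether the numbers pair mice or batches. With the replicate block 4 genes passed at 1 h against vehicle, 6 fell from 1 to 6 h and 0 from 1 to 24 h. Zbtb16, at a few CPM, rests on the fewest counts of the 10 genes.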
